A study of Rattus norvegicus with 19 samples.

Results

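The 77 tRNA features whose names carry the isotype leucine (Leu), serine (Ser), arginine (Arg) or selenocysteine (SeC) were examined in the small RNA of rat plasma, out of 386 tRNA features counted in all. They were chosen by the isotype written in the feature name. There were 28 Leu, 22 Ser, 26 Arg and 1 SeC features, and they carried 15 anticodons (5 Leu, 4 Ser, 5 Arg and 1 SeC). All rats were adult male Sprague–Dawley rats, and tail-vein plasma was drawn under isoflurane 2 days after the procedure. The groups were severe lateral fluid-percussion injury (sTBI, 5 rats), mild lateral fluid-percussion injury (mTBI, 5 rats), sham operation with craniectomy and no impact (sham, 5 rats), and naive rats that had anesthesia without surgery (naive, 4 rats). Each library came from the pooled plasma aliquots of a single rat, and the injury was made by a fluid pulse on the exposed dura. Sham and injured rats share the craniectomy, the scalp incision, surgical isoflurane, local lidocaine, and buprenorphine and saline afterwards. For naive rats the paper gives only the isoflurane on that day. In comparisons with naive rats these exposures cannot be told apart.

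A transfer RNA carries an amino acid to the ribosome and reads the codon with its anticodon, and most tRNAs are encoded by several gene copies of near-identical sequence. Leu, Ser and SeC tRNAs have a long variable arm, which most other tRNAs, Arg tRNAs among them, do not have. In the anticodons that start with A (Leu-AAG, Ser-AGA and Arg-ACG) that base is turned into inosine in the mature tRNA, and SeC-TCA reads UGA as selenocysteine in the mRNAs of selenoproteins. In plasma, tRNA reads in small RNA libraries come mostly from fragments of tRNAs cut by ribonucleases, and fragments of glycine and glutamate tRNAs are the ones best known there.

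Each value is a count of unique molecular identifiers (UMIs), random tags that let copies of 1 molecule made by PCR be counted once. A UMI stands for a fragment and not for the length of a gene, and the lengths of the features were not used. The libraries held 16241433 to 21517763 reads, of which 8.51% to 43.0% were tRNA reads, and 1386885 to 6252441 tRNA UMIs. The 77 features together had 17215 to 78661 UMIs in a library, that is 0.401% to 2.12% of its tRNA UMIs. In 12 libraries some of them had counts of 1 to 9, and in the other 7 libraries none did, so a 0 in those 7 can stand for a low count that was not kept. Of the 77 features, 42 were above 0 in every library (22 Leu, 14 Ser, 5 Arg and 1 SeC). Another 21 did not reach 20 UMIs in any library, and 16 of these were Arg features. Plasma was checked by its miRNAs: 10 of 11 miRNAs of blood cells, liver and muscle that were looked up were found by name, and the log2 ratio of miR-451 to miR-23a, a measure of red cell RNA, ran between -3.45 and -2.15 in sTBI libraries, -3.47 and -1.91 in mTBI libraries, -3.83 and -1.29 in sham libraries and -3.81 and -2.63 in naive libraries. None of the 10 miRNAs was at 0 in any library. The muscle miRNA miR-206-3p was at 642 to 1113 CPM of miRNA UMIs in sTBI, 1146 to 2168 in mTBI, 1088 to 6449 in sham and 142 to 651 in naive libraries, and it was the only one of the 10 whose mTBI and sham libraries all lay above the naive ones. The 4 red cell miRNAs were miR-16-5p, miR-486, miR-451-5p and miR-144-3p. Most of their sum was miR-16-5p, with a mean of 203008 CPM over the 19 libraries beside 281364 for the sum. Their summed CPM was 201948 to 352603 in sTBI, 166954 to 344756 in mTBI, 226037 to 364600 in sham and 166195 to 352568 in naive libraries. The summed CPM of miR-223-3p and miR-126a-3p, grouped as platelet and myeloid miRNAs, was 54519 to 64400 in sTBI, 46354 to 65475 in mTBI, 46040.0 to 66123 in sham and 37699 to 64380.4 in naive libraries. These 2 differed in direction. The mean of miR-223-3p was 41847 in sTBI, 37698 in mTBI, 40410.5 in sham and 27663 in naive libraries. That of miR-126a-3p was 17801 in sTBI, 20902 in mTBI, 16712 in sham and 19509 in naive libraries. The summed CPM of the leukocyte miRNAs miR-150-5p and miR-142-5p was 32776 to 38499 in sTBI, 16581 to 52319.8 in mTBI, 24660 to 56724 in sham and 14467 to 55192 in naive libraries. Nearly all of it was miR-150-5p, with a mean of 33928 beside 34389 for the sum. The mean of miR-142-5p was 429 in sTBI, 500 in mTBI, 387 in sham and 546 in naive libraries. The liver miRNA miR-122-5p was at 26468 to 77940.1 in sTBI, 21949 to 138736 in mTBI, 25683 to 141403 in sham and 18620 to 127081 in naive libraries. The part of these cell sources in the differences from naive libraries was not tested beyond the red cell ratio.

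A few libraries stood apart in earlier results of these data, namely mTBI 2, mTBI 5, naive 1 and naive 3. Their miRNA UMIs per spike-in UMI (control RNAs added during preparation, in an amount not given in the sources used here) were 16.8, 12.6, 12.7 and 15.0, and no other library exceeded 9.37. Relative to 1000 spike-in UMIs, Leu-AAG had 110 to 253 UMIs in these libraries and 28.9 to 86.2 in the others, and Ser-GCT had 2.82 to 6.19 and 0.926 to 2.10 UMIs. The ranges of Ser-AGA, 2.06 to 3.20 and 0.907 to 2.43, overlapped, as did those of every Arg anticodon. Those of all tRNA UMIs overlapped too, at 6566 to 23739 and 2375 to 12915. The miRNA and tRNA values here are divided by the same spike-in UMIs, so they are not independent. Spike-in UMIs were lowest in mTBI 2 and naive 3, at 250617 and 272281, which raises any value per spike-in UMI in them. For some of the values named below, the value without these 4 libraries is given beside it. Where none is given, a dependence on them is not excluded. Without them 2 naive and 3 mTBI libraries remain.

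**Figure D1:**
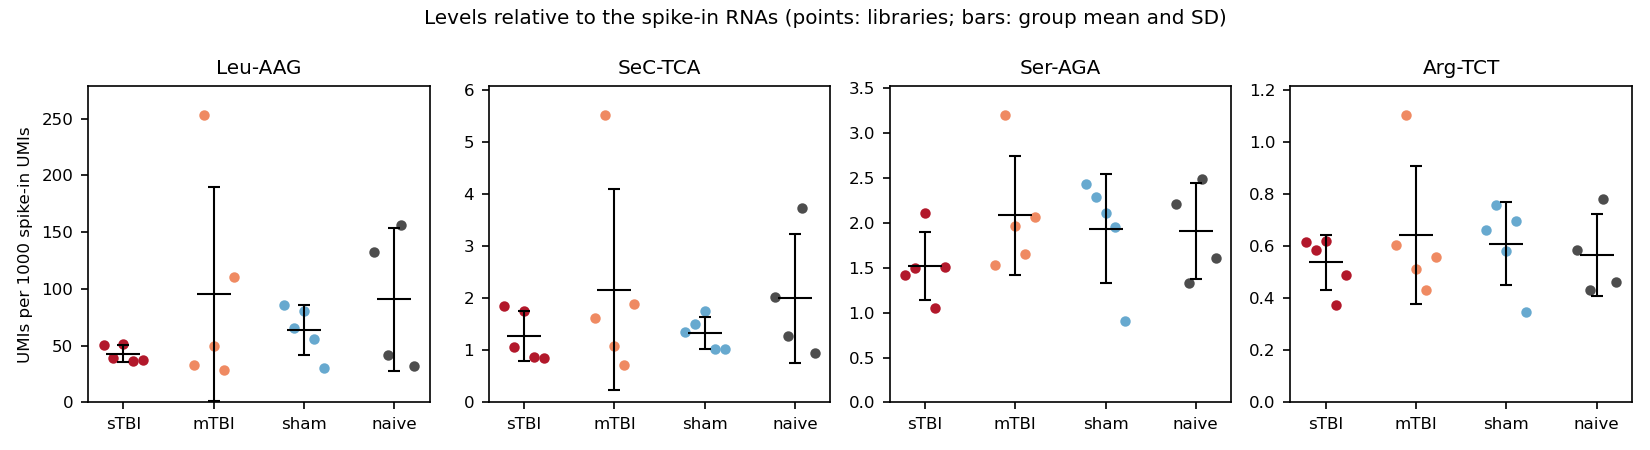
UMIs per 1000 spike-in UMIs (y axis, linear, from 0) of Leu-AAG, SeC-TCA, Ser-AGA and Arg-TCT in every library (points), with the group mean and SD (bars). The Leu-AAG points of 2 mTBI and 2 naive libraries lie between 110 and 253, above all other libraries, whereas their Ser-AGA points, at 2.06 to 3.20, overlap those of the rest, at 0.907 to 2.43. These libraries were set apart by miRNA UMIs per spike-in UMI, which has the same divisor as the y axis.

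Leu was among the more abundant isotypes of plasma tRNA, after Gly, Glu and His by mean share and close to Asp (0.974%), and the other members were minor. Gly made up 74.3% and Glu 21.8% of tRNA UMIs on average over the 19 libraries. Leu made up 0.990% ± 0.444 (SD, n = 19), Ser 0.0744% ± 0.0345, SeC 0.0213% ± 0.0131 and Arg 0.0137% ± 0.00846. The Leu share was 0.869% ± 0.194 in sTBI (n = 5), 1.34% ± 0.515 in mTBI (n = 5), 0.895% ± 0.294 in sham (n = 5) and 0.818% ± 0.613 in naive (n = 4) libraries, where it was 0.527% without naive 1. Naive 2 and naive 4, the naive libraries that did not stand apart, were at 0.442% and 0.346%. The order of isotypes differed between groups. The mean share of Asp was above that of Leu in sTBI (1.05%) and sham (1.11%) libraries. It was below that of Leu in mTBI (0.962%) and naive (0.726%) libraries. In mTBI libraries the mean share of His, 0.879%, was below that of Leu. The Arg share was 0.0146% ± 0.00446 in sTBI, 0.0196% ± 0.0139 in mTBI, 0.0119% ± 0.00382 in sham and 0.00752% ± 0.00322 in naive libraries. Such shares move with the Gly and Glu UMIs that fill most of each library, and sums over chosen isotypes were not tested. With 26 features, Arg had nearly as many gene copies in the table as Leu, yet within the 4 isotypes Leu held 89.7% ± 2.33 of the UMIs, Ser 7.03% ± 1.66, SeC 1.95% ± 0.553 and Arg 1.27% ± 0.443.

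A single Leu feature supplied most of the signal. Leu-AAG, the inosine-bearing leucine tRNA, held 76.4% of the UMIs of the 4 isotypes, and Chr1.trna5254-LeuAAG on chromosome 1 held 89.0% to 91.6% of the Leu-AAG UMIs in every library. Feature names give the chromosome and a running number of the tRNA gene, and start and end positions were not used. Leu-TAG followed with 6.29% of the UMIs and Leu-CAG with 5.41%. Chr10.trna2467-LeuTAG and Chr17.trna1598-LeuCAG were their most abundant features, with 55.5% and 69.6% of the UMIs of their anticodons. Leu-CAA (1.30%, led by Chr17.trna3814-LeuCAA) and Leu-TAA (0.348%, led by Chr1.trna16829-LeuTAA) were the least abundant Leu anticodons. Chromosome 1, with 10 of the features, held 74.7% of the UMIs, and chromosome 17, with 21 features, held 15.0%.

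Ser anticodons were closer to each other in level than Leu anticodons. Ser-AGA held 2.46% of the UMIs of the 4 isotypes, Ser-GCT 2.20%, Ser-CGA 1.89% and Ser-TGA 0.479%. Their leading features were Chr17.trna1642-SerAGA (80.1% of its anticodon), Chr17.trna3899-SerGCT (83.9%), Chr7.trna9814-SerCGA (73.9%) and Chr20.trna3731-SerTGA (51.6%). SeC-TCA had a single feature, Chr1.trna1937-SeC(e)TCA, with 664 UMIs in the mean library, more than any Arg anticodon. The Arg anticodons had 247 (Arg-TCT), 58.8 (Arg-CCG), 50.3 (Arg-CCT), 24.3 (Arg-TCG) and 19.9 (Arg-ACG) UMIs in the mean library, led by Chr2.trna6477-ArgTCT, Chr10.trna5710-ArgCCG, Chr10.trna12842-ArgCCT, Chr1.trna3877-ArgTCG and Chr17.trna1630-ArgACG. The 3 inosine anticodons thus lay at both ends of the scale, with Leu-AAG at 27907 and Arg-ACG at 19.9 UMIs in the mean library. Reads per UMI, pooled over the libraries, ran between 1.45 for SeC-TCA and 1.84 for Ser-CGA. Over all members they ran between 1.22 in mTBI 2 and 2.36 in mTBI 4. The pooled values thus depend on which libraries hold the UMIs, and PCR copying of each anticodon was not tested.

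To compare groups, counts were scaled with TMM, which sets libraries level on the bulk of tRNA features, and expressed as CPM (the count divided by the scaled tRNA total and given in parts of 1000000). On this scale the spread over the 19 libraries differed between anticodons. The coefficient of variation was 19.9% for Arg-TCT, 20.7% for Leu-CAA, 21.2% for Ser-TGA and 22.5% for Ser-AGA, and it was 41.9% for Leu-AAG, 50.5% for Leu-CAG and 64.1% for Arg-ACG, which had few counts. Leu-AAG had 6736, 6315, 6770.4, 6042 and 5889 TMM-scaled CPM in sTBI libraries, 5784, 15663, 6582, 6274 and 14909 in mTBI libraries, 8663, 7182, 10129, 7421 and 4387 in sham libraries, and 14932, 5757, 10497 and 5915 in naive libraries. The high values were those of mTBI 2, mTBI 5, naive 1 and naive 3, followed by sham 3, and all groups overlapped.

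**Figure D2:**
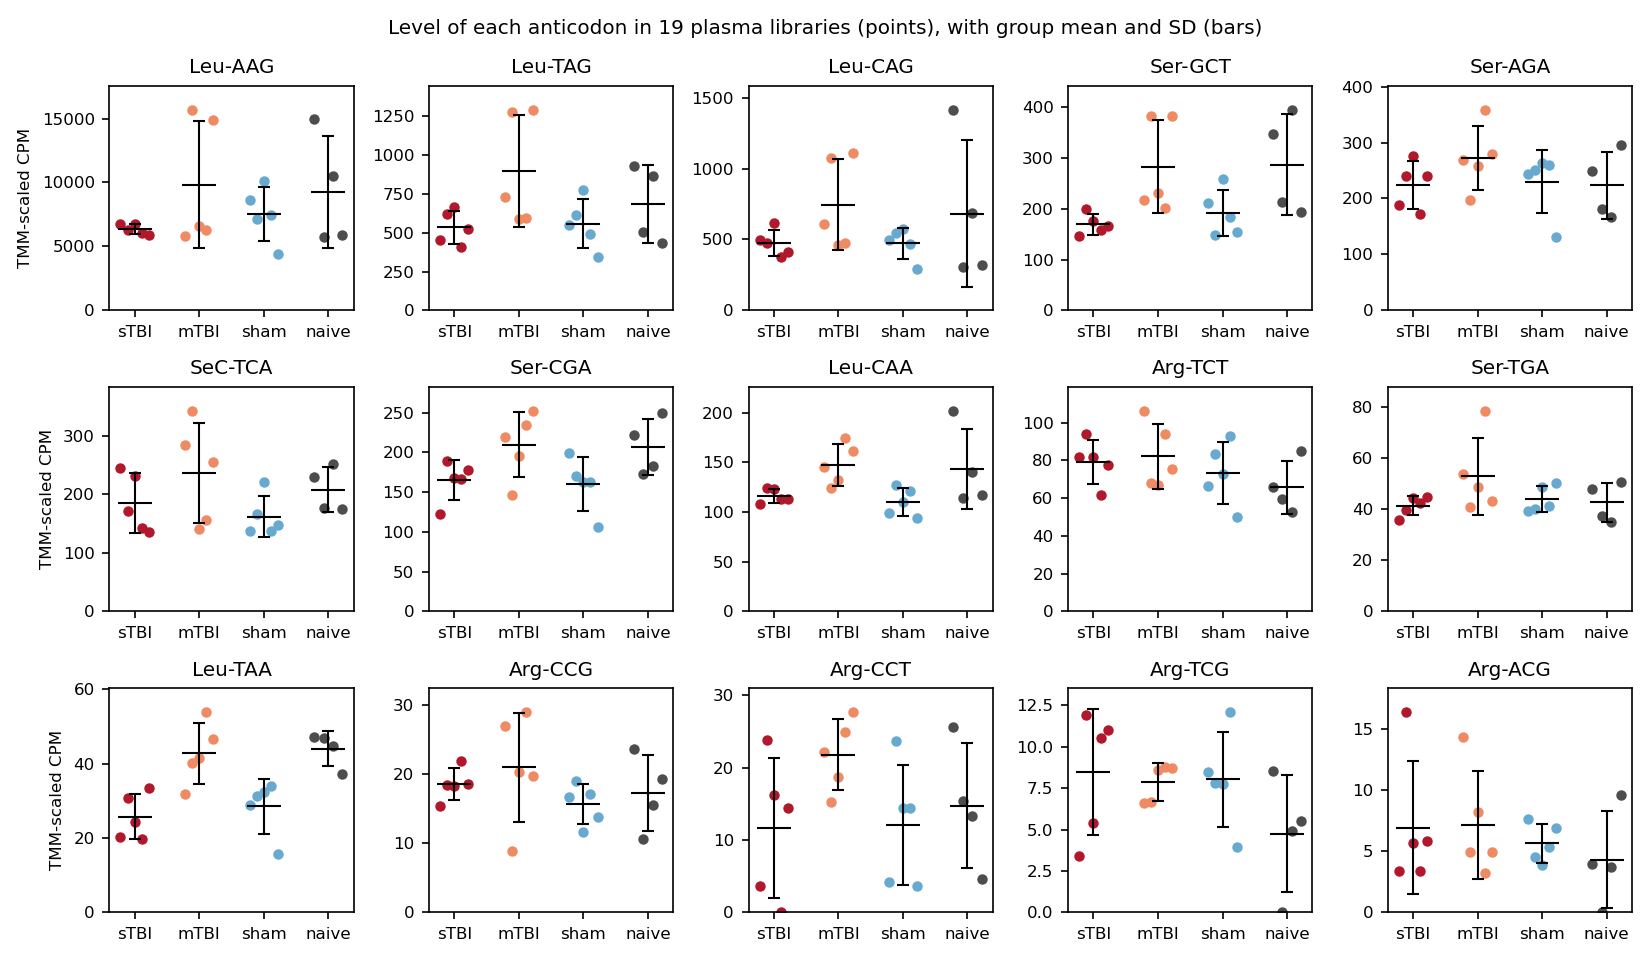
TMM-scaled CPM (y axes, linear, from 0) of the 15 anticodons in order of abundance, for sTBI, mTBI, sham and naive libraries (points), with the group mean and SD (bars). Leu-TAA is the anticodon whose sTBI libraries, at 19.8 to 33.4, and sham libraries, at 15.9 to 33.9, all lie below the naive libraries, at 37.2 to 47.2; the mTBI and naive points of Leu-AAG, Leu-CAG, Leu-TAG and Ser-GCT are split by the 4 libraries that stood apart.

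The first comparison was of severe injury with naive rats. Whether injury changed these tRNA fragments was tested with edgeR's quasi-likelihood test across the whole tRNA table, with Benjamini-Hochberg adjustment at 0.05. None of the 68 Leu, Ser, Arg and SeC features that passed the filter on low counts was called in sTBI against naive libraries, nor was any of the 332 tRNA features tested (0%), and none of the 15 anticodons was called, nor any of the 65 tested (0%). At an unadjusted p under 0.05 there were 8 of the 68 features (3 higher and 5 lower), against 64 of the 332 (19.3%), and 2 of the 15 anticodons, against 10 of 65 (15.4%). The median log2 fold change of the 68 features was -0.04 and that of all 332 was -0.09. DESeq2, run on the same UMIs, called 3 of these features lower, of 25 to which it gave an adjusted p, against 18 of 154 in the table (11.7%). It called 1 of 15 anticodons, against 2 of 68 (2.94%). On the read counts of the sTBI and naive libraries alone it called the same number of features, 3 of 37, against 49 of 217 (22.6%), and 3 of 13 anticodons, against 12 of 49 (24.5%). These were Leu-TAA and Ser-GCT, lower, and Arg-TCT, higher by 0.43 on the log2 scale (DESeq2 adjusted p = 0.0338). Scaled to total tRNA UMIs without TMM, 13 of the 15 anticodons were above 0, against 5 with TMM, and the median of all features was 0.64. With TMM and without the 4 libraries that stood apart, the median of all features was 0.005.

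Leu-TAA had the lowest p of the anticodons in this comparison. It had 20.4, 30.7, 24.3, 19.8 and 33.4 TMM-scaled CPM in sTBI libraries, against 47.2, 46.9, 44.7 and 37.2 in naive libraries, and the groups did not overlap. Of the 65 anticodons tested 4 did not overlap (6.15%), and Leu-TAA was the only member among them. Its log2 fold change was -0.78 ± 0.24 (SE, 95% interval -1.27 to -0.28), which did not pass the edgeR test (adjusted p = 0.162), and DESeq2 gave -0.65 with an adjusted p of 0.0272. Without the 4 libraries that stood apart the log2 fold change was -0.70, and with the miR-451 to miR-23a ratio as a covariate it was -0.85 (edgeR adjusted p = 0.0590). Scaled to total tRNA UMIs it was -0.06.

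Ser-GCT, a serine tRNA for the AGC and AGU codons, had 147, 199.7, 176, 157 and 167 TMM-scaled CPM in sTBI libraries, against 346.5, 213, 394 and 193 in naive libraries. The groups overlapped at naive 4. As CPM of tRNA UMIs without TMM, Ser-GCT had a mean of 197 in sTBI and 207 in naive libraries. With TMM the log2 fold change was -0.76 ± 0.26 (95% interval -1.29 to -0.23, edgeR adjusted p = 0.162), and without the 4 libraries that stood apart it was -0.25. Other values turned round with those libraries. Leu-AAG was at -0.55 ± 0.34 (-1.26 to 0.16) and at 0.14 without them, Leu-CAG at -0.53 ± 0.37 (-1.29 to 0.24) and at 0.61 without them, and SeC-TCA at -0.17 ± 0.26 (-0.71 to 0.37) and at 0.10 without them. Of the 15 anticodons, 10 were below 0 with all libraries and 5 without the 4. The intervals of all 5 Arg anticodons held 0.

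The 3 features that DESeq2 called were the Leu-TAG feature Chr1.trna11779-LeuTAG and the leading features of Leu-TAA and Ser-GCT. Chr1.trna11779-LeuTAG had 114, 155, 148, 114 and 169.96 TMM-scaled CPM in sTBI libraries, against 459, 213, 407 and 178 in naive libraries. All sTBI libraries were below all naive libraries, by a log2 fold change of -1.16 ± 0.35 with edgeR (adjusted p = 0.167) and -1.14 with DESeq2 (adjusted p = 0.0332). Chr1.trna16829-LeuTAA was at -0.78 ± 0.23 with edgeR (adjusted p = 0.167) and -0.74 with DESeq2 (adjusted p = 0.0332), and Chr17.trna3899-SerGCT at -0.89 ± 0.30 with edgeR (adjusted p = 0.175) and -0.86 with DESeq2 (adjusted p = 0.0489). Without the 4 libraries that stood apart, edgeR gave -0.46 for Chr1.trna11779-LeuTAG and -0.27 for Chr17.trna3899-SerGCT, and DESeq2 called none of these 3 features. With DESeq2 Chr1.trna11779-LeuTAG was then at -0.38 (adjusted p = 0.447), Chr1.trna16829-LeuTAA at -0.68 (adjusted p = 0.0975) and Chr17.trna3899-SerGCT at -0.19 (adjusted p = 0.634), and Leu-TAA at -0.59 (adjusted p = 0.316). It called instead Chr13.trna2162-LeuCAG and Chr17.trna1598-LeuCAG, both higher in sTBI libraries, of 24 members against 40 of 146 features (27.4%), and the anticodon Leu-CAG, at 0.74 (adjusted p = 0.00411), against 2 of 68 (2.94%). This fit was added after the values were seen. Chr13.trna2313-ArgTCT, outside the rule for named features and chosen after its values were seen, had 15, 12, 0, 0 and 0 UMIs in sTBI libraries. It had 10, 0, 3, 0 and 0 in mTBI libraries, 0, 14, 17, 14 and 0 in sham libraries and 0 in each naive library. These counts are close to, and in mTBI 3 within, the 1 to 9 that 7 libraries did not hold.

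**Figure D3:**
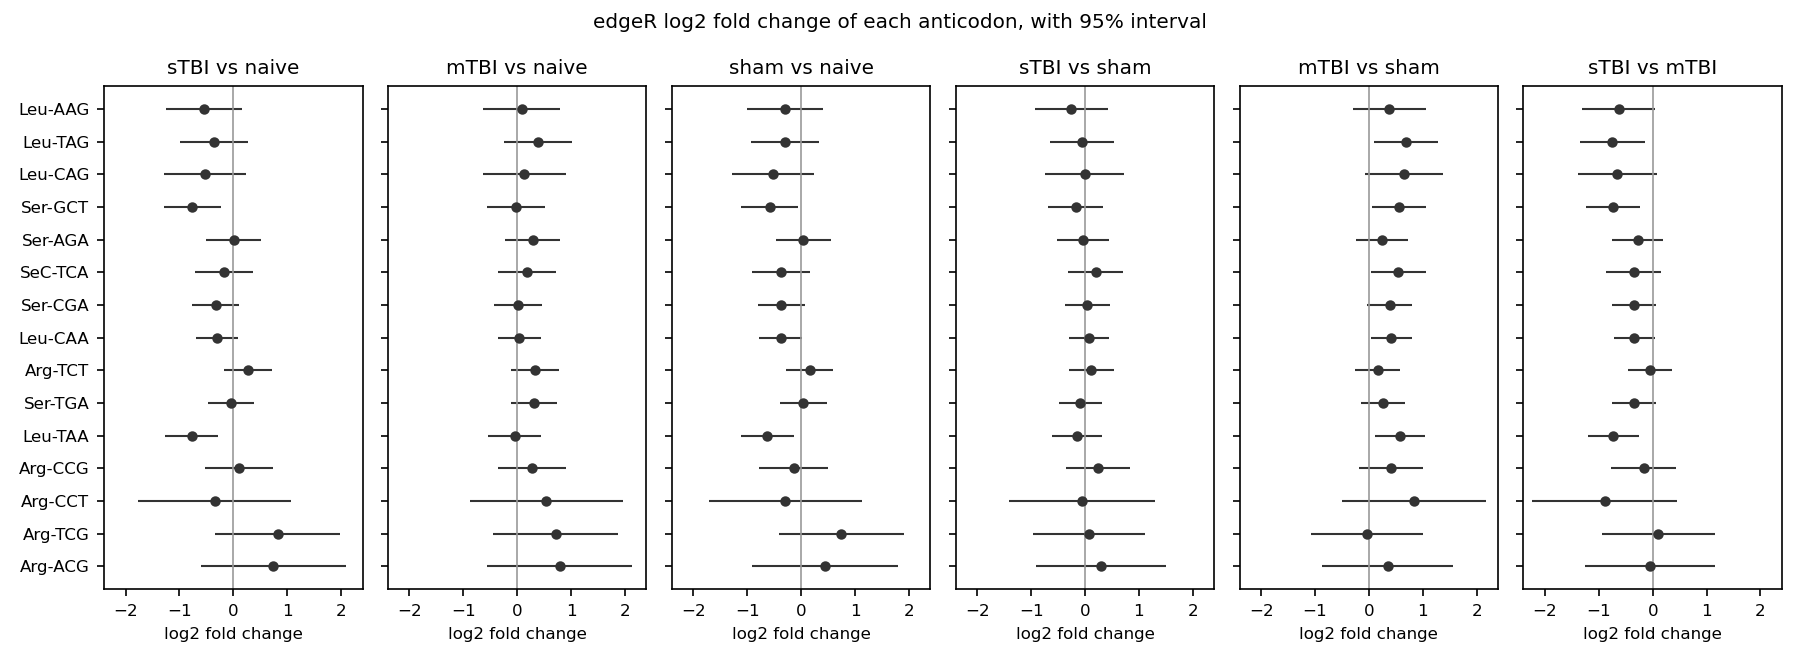
Log2 fold change (x axes) of the 15 anticodons from edgeR with its 95% interval (bars), in each of the 6 comparisons, the group named first over the group named second. None passes at an adjusted p of 0.05. The intervals of Leu-TAA and Ser-GCT lie below 0 in sTBI against naive, sham against naive and sTBI against mTBI. That of Leu-TAG also lies below 0 in sTBI against mTBI. In mTBI against sham those of Leu-CAA, Leu-TAA, Leu-TAG, SeC-TCA and Ser-GCT lie above 0.

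Mild injury was then compared with naive rats. No member was called with edgeR in mTBI against naive libraries, of 68 features and 15 anticodons tested. Over all tRNAs 1 of 332 features (0.301%) and 0 of 65 anticodons (0%) were called. At an unadjusted p under 0.05 there were 4 of the 68 features, all higher, against 51 of 332 (15.4%), and none of the 15 anticodons, against 6 of 65 (9.23%). DESeq2 gave an adjusted p to 17 of the 77 member features and called none of them, against 17 of 117 features (14.5%). It called none of the 15 anticodons, against 1 of 68 (1.47%). The median log2 fold change was 0.25 over the 68 features and 0.12 over all 332. For Leu-AAG the difference was 0.09 ± 0.35 (95% interval -0.63 to 0.80), for SeC-TCA 0.18 ± 0.26 (-0.36 to 0.72) and for Arg-TCT 0.32 ± 0.22 (-0.12 to 0.77), so changes of the size of these bounds were not excluded. Leu-TAA had 31.8, 40.2, 41.6, 53.9 and 46.6 TMM-scaled CPM in mTBI libraries, which overlapped the naive libraries. Scaled to total tRNA UMIs without TMM, edgeR called 2 member features, Chr10.trna2467-LeuTAG and Chr5.trna491-SerAGA, both higher, against 22 of 332 features (6.63%). It called 5 of the 15 anticodons higher (Arg-ACG, Arg-TCT, Leu-TAG, Ser-AGA and Ser-TGA), against 19 of 65 (29.2%). On that scale the median of all features was 1.03, and the log2 fold changes of these 5, at 1.11 to 1.94, lie 0.08 to 0.91 above it. DESeq2 without the 4 libraries called 5 member features higher of 67, namely Chr1.trna3877-ArgTCG, Chr10.trna5710-ArgCCG, Chr17.trna1644-SerAGA, Chr19.trna4843-LeuCAG and Chr20.trna3731-SerTGA, against 50 of 338 (14.8%). Chr17.trna1644-SerAGA had 12, 13 and 0 UMIs in mTBI 1, 3 and 4, and 0 in naive 2 and naive 4. Chr1.trna3877-ArgTCG had 22, 18 and 15, against 0 in naive 2 and 7 in naive 4. Naive 2 is among the 7 libraries without counts of 1 to 9, so its 0 can stand for a low count.

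Sham operation was compared with naive rats in the same way. No member feature or anticodon was called with edgeR, nor any of the 332 features (0%) or 65 anticodons (0%) of the table. At an unadjusted p under 0.05 there were 8 of the 68 features (3 higher and 5 lower), against 39 of 332 (11.7%), and 2 of the 15 anticodons, against 4 of 65 (6.15%). DESeq2 called no member on UMIs, against 2 of 380 features (0.526%). On read counts of the 2 groups it called 1 member of 44, Chr17.trna3849-SerAGA, higher in sham libraries, against 14 of 231 (6.06%). Leu-TAA had 28.9, 31.4, 32.5, 33.9 and 15.9 TMM-scaled CPM in sham libraries, all below the 4 naive libraries. It was the 1 anticodon of 65 (1.54%) that did not overlap, with a log2 fold change of -0.63 ± 0.24 (95% interval -1.12 to -0.13, edgeR adjusted p = 0.477). As CPM of tRNA UMIs without TMM, Leu-TAA overlapped, at 15.8 to 37.3 in sham and 18.9 to 45.6 in naive libraries. Ser-GCT was at -0.59 ± 0.26 (edgeR adjusted p = 0.516), at -0.36 without naive 3 and at -0.09 without the 4 libraries that stood apart. Leu-CAG was at -0.52 ± 0.37, at 0.12 without naive 1 and at 0.60 without the 4 libraries, where DESeq2 called it higher in sham libraries (0.76, adjusted p = 0.00290), against 1 of 68 anticodons (1.47%). Leu-AAG was at -0.30 ± 0.34, at 0.03 without naive 1 and at 0.37 without the 4 libraries. Scaled to total tRNA UMIs, 12 of the 15 anticodons were above 0, against 5 with TMM. The median over the 68 features was -0.03 and over all features -0.14. Without the 4 libraries the median over all features was -0.04, and 9 of the 15 anticodons were above 0. The 3 comparisons with naive libraries share those 4 libraries.

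Sham-operated rats served as the control for the surgery. In sTBI against sham libraries no member was called with edgeR, nor any of 332 features (0%) or 65 anticodons (0%), and DESeq2 called none. No member feature had an unadjusted p under 0.05, against 1 of 332 (0.301%), and no member anticodon, against 1 of 65 (1.54%). The log2 fold changes of the 15 anticodons lay between -0.25 and 0.30. With TMM 7 of them were above 0, with total tRNA scaling 14 and with spike-in scaling 0. Leu-CAA had a difference of 0.08 ± 0.18 (95% interval -0.29 to 0.45), and Arg-TCT 0.12 ± 0.20 (-0.30 to 0.53). In mTBI against sham libraries none was called with edgeR either (0% of 332 features and 0% of 65 anticodons), and DESeq2 called none on UMIs. On read counts of the 2 groups DESeq2 called 1 member feature of 50, Chr10.trna2466-SerCGA, higher in mTBI libraries, against 12 of 255 (4.71%), and no member anticodon, against 1 of 67 (1.49%). With edgeR 8 of the 68 features, all higher, had an unadjusted p under 0.05, against 28 of 332 (8.43%), and so had 5 of the 15 anticodons, against 9 of 65 (13.8%). These were Leu-CAA (0.42 ± 0.18), Leu-TAA (0.58 ± 0.23), Leu-TAG (0.69 ± 0.29), SeC-TCA (0.55 ± 0.25) and Ser-GCT (0.57 ± 0.24), each with an edgeR adjusted p of 0.311. With the 4 libraries left out, Leu-TAG was at 0.20, SeC-TCA at 0.26 and Ser-GCT at 0.18, while Leu-CAA was at 0.45 and Leu-TAA at 0.57. SeC-TCA was at 0.30 without mTBI 1 alone and at 0.32 without mTBI 2 alone. Leu-AAG was at 0.38 ± 0.33 and, without the 4 libraries, at -0.28, where DESeq2 called it lower in mTBI libraries (-0.60, adjusted p = 0.0206), against 4 of 68 anticodons (5.88%). The median over the 68 features was 0.33, and over all 332 it was 0.24. Scaled to total miRNA UMIs the log2 fold change of Leu-CAA was -0.12, that is, of the other sign, where the median of all features was -0.28 and 6 of the 15 anticodons were above 0, against 14 with TMM.

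The 2 severities were compared with each other. No member feature or anticodon was called with edgeR in sTBI against mTBI libraries, nor any of 332 features (0%) or 65 anticodons (0%), and DESeq2 called none. At an unadjusted p under 0.05 there were 9 of the 68 features, all lower, against 15 of 332 (4.52%). These 9 are 13.2% of the features tested here. The same held for 3 of the 15 anticodons, against 4 of 65 (6.15%). Leu-TAA was at -0.73 ± 0.23 (95% interval -1.20 to -0.26, edgeR adjusted p = 0.191), Ser-GCT at -0.74 ± 0.25 (-1.25 to -0.23, adjusted p = 0.191) and Leu-TAG at -0.75 ± 0.29 (-1.35 to -0.15, adjusted p = 0.328). Without the 4 libraries these were -0.70, -0.34 and -0.24. Ser-GCT had 216, 383, 232, 201 and 382 TMM-scaled CPM in mTBI libraries, all above the sTBI libraries, and it was the 1 anticodon of 65 (1.54%) that did not overlap. The highest sTBI and the lowest mTBI library were at 199.7 and 200.9. As CPM of tRNA UMIs without TMM the groups overlapped, at 146 to 255 in sTBI and 211 to 520 in mTBI libraries. The median over the 68 features was -0.35 and over all features -0.17. Scaled to total miRNA UMIs these medians were 0.13 and 0.29, that is, of the other sign, and 9 of the 15 anticodons were above 0, against 1 with TMM.

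How an anticodon's UMIs were divided among its gene copies is a ratio within a library, which no scaling between libraries touches. That of Leu-AAG was steady, at 89.0% to 91.6% in Chr1.trna5254-LeuAAG, while that of Leu-TAG was not. Chr10.trna2467-LeuTAG held 62.3%, 64.8%, 68.2%, 57.6% and 56.2% of Leu-TAG UMIs in sTBI libraries, 73.6%, 51.2%, 53.4%, 52.0% and 53.8% in mTBI libraries and 51.5%, 58.7%, 58.3%, 57.9% and 61.9% in sham libraries. In naive libraries it held 35.3%, 47.6%, 41.8% and 47.6%, below every library of the other groups. The ratio of Chr10.trna2467-LeuTAG to Chr1.trna11779-LeuTAG was 2.38 ± 0.511 in sTBI (SD, n = 5), 1.91 ± 1.06 in mTBI (n = 5), 1.98 ± 0.349 in sham (n = 5) and 0.975 ± 0.212 in naive (n = 4) libraries.

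The difference in this share was 18.7 percentage points for sTBI against naive, 13.7 for mTBI against naive and 14.6 for sham against naive libraries. Each had an exact permutation p of 0.0159 (two-sided), the smallest that 5 against 4 libraries allow. Adjusted over the 39 anticodons of the table with more than 1 feature and at least 20 UMIs in each library, the exact permutation p was 0.206, 0.310 and 0.155. Ranges did not overlap for 3 of the 39 anticodons in sTBI against naive (7.69%), 2 in mTBI against naive (5.13%) and 4 in sham against naive libraries (10.3%), and for 1, 1 and 2 of the 11 Leu, Ser and Arg anticodons among them. The other member was Ser-AGA in sham against naive, whose leading feature held 75.9% in sham and 87.4% in naive libraries on average. With the edgeR test of feature usage within an anticodon (diffSpliceDGE), none of 66 member features was called in any of the 6 comparisons, against 3 of 311 in sTBI against naive (0.965%), 2 in sham against naive (0.643%) and 0 in the other 4 (0%), while 7 members in sTBI against naive, 3 in mTBI against naive, 6 in sham against naive and 1 in each of the others had an unadjusted p under 0.05. Chr1.trna11779-LeuTAG had a log2 usage of -0.80 in sTBI against naive libraries (adjusted p = 0.275). This look at copies was added after the values were seen, and how reads that fit several copies were assigned is not given in the sources used here.

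**Figure D4:**
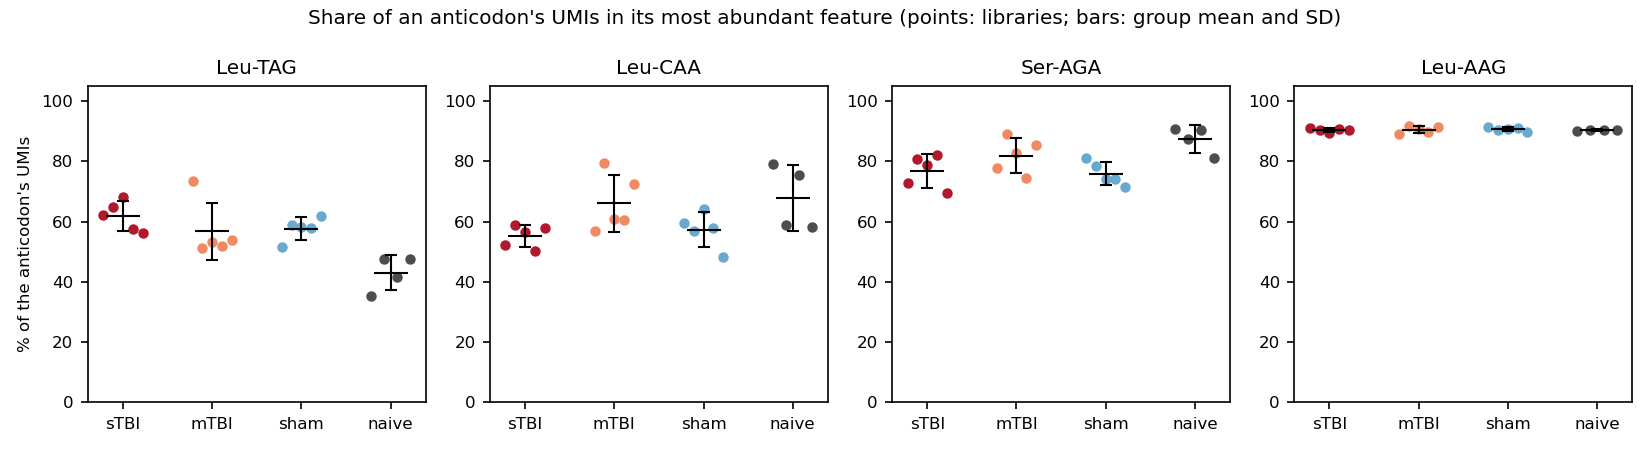
Percent of an anticodon's UMIs in its most abundant feature (y axes, linear, 0 to 100) for Leu-TAG, Leu-CAA, Ser-AGA and Leu-AAG in every library (points), with the group mean and SD (bars). The 4 naive points of Leu-TAG, at 35.3 to 47.6, lie below all sTBI, mTBI and sham points, while Leu-AAG stays between 89.0 and 91.6 in all libraries.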

How the data were processed

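Small RNA of tail-vein plasma was sequenced with UMIs, and 19 libraries (5 sTBI, 5 mTBI, 5 sham, 4 naive) were used, grouped by their titles. The authors trimmed reads with cutadapt, aligned them with Bowtie (Rnor_6.0, per the submitters' notes) and deposited UMI counts and read counts per feature; these counts are not normalized. Assignment of reads that fit several tRNA copies is not given in the sources used here. UMI counts were used, with read counts as an alternative. The deposited tables hold no comparison between groups that was used here.

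Counts of all 386 tRNA features, and sums by anticodon, were fitted with edgeR 4.0.16 (glmQLFit and glmQLFTest, robust, TMM, filterByExpr with a minimum count of 10, all groups in 1 fit), with Benjamini-Hochberg adjustment over 332 features or 65 anticodons at 0.05. SE and 95% intervals come from the quasi-likelihood F. DESeq2 1.42.0 was an alternative. Others were the filter, RLE, total tRNA, miRNA or spike-in scaling, a hemolysis covariate, a replicate block, 2-group fits, counts under 10 set to 0, and leaving out libraries, with DESeq2 too (chosen after seeing the data). Fits were tested on simulated data in which libraries shared a common composition and differed in depth and in the changes put in. That test cannot speak to the choice of scaling or to the 4 libraries that stood apart. Exact permutation tests used scipy 1.17.1. Members with 17215 to 78661 UMIs a library limit precision. As each rat gave 1 library, p-values measure the spread between libraries, in which rat and preparation cannot be told apart.

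Every member anticodon was named, with the most abundant feature of each and any feature called in any fit. The members, lists and rules were chosen with earlier results of these data known. Sequences of the tRNAs are not shown.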

Additional observations from a re-analysis of the deposited data

Results flagged for a closer look

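In 108 groups of libraries looked at (each anticodon's level and leading-copy share in each group, and the members' share of tRNA UMIs), 6 held a library far from the others, where chance alone gives about 1 in 20. Sham 5 was low for Leu-TAA, at 15.9 TMM-scaled CPM beside 28.9 to 33.9 in the other sham libraries, and for Ser-AGA, at 130 beside 244 to 263. sTBI 2 was high for Arg-ACG, at 16.4 TMM-scaled CPM beside 3.40 to 5.85 in the other sTBI libraries. The leading Arg-CCG feature held 88.2% of Arg-CCG UMIs in sham 2 and 89.2% in naive 1, beside 100% in the other libraries of those groups. With the others tied at 100%, any lower value would be flagged, so the rate of 1 in 20 does not apply. Each of these flags rested on 9 UMIs, of Chr10.trna12841-ArgCCG in sham 2 and of Chr17.trna1679-ArgCCG in naive 1. Chr10.trna2467-LeuTAG held 73.6% of Leu-TAG UMIs in mTBI 1, beside 51.2% to 53.8% in the other mTBI libraries. Without mTBI 1 the difference of this share between mTBI and naive libraries was 9.50 percentage points.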

How the results depend on the processing

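With edgeR no member was called in any comparison, and 256 of 258 alternative counts with edgeR were 0 as well, including all that leave out 1 library (lowest and highest 0). The exceptions were 2 features and 5 anticodons in mTBI against naive libraries with total tRNA scaling. DESeq2 called 3 features and 1 anticodon (Leu-TAA) lower in sTBI against naive libraries. On read counts of the groups compared it called 3 features and 3 anticodons in sTBI against naive, 1 feature in sham against naive (Chr17.trna3849-SerAGA, higher) and 1 in mTBI against sham libraries (Chr10.trna2466-SerCGA, higher). Without the 4 libraries that stood apart it called 2 features and 1 anticodon in sTBI against naive, 5 features in mTBI against naive, 1 anticodon in sham against naive and 1 in mTBI against sham libraries. The causes were not tested.

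Of the log2 fold changes named, those that turned their sign follow, grouped by setting. With total tRNA scaling Leu-AAG was at 0.069, Leu-CAG at 0.035 and SeC-TCA at 0.55 in sTBI against naive, and Leu-AAG at 0.15 in sham against naive. With total miRNA scaling SeC-TCA was at 0.061 in sTBI against naive and -0.012 in mTBI against naive, Leu-AAG at -0.070 in mTBI against naive, 0.021 in sham against naive and -0.090 in mTBI against sham, and Leu-CAA at -0.12 in mTBI against sham. With spike-in scaling Leu-CAA was at -0.22 and Arg-TCT at -0.18 in sTBI against sham. Without the 4 libraries Leu-AAG was at 0.14, Leu-CAG at 0.61 and SeC-TCA at 0.095 in sTBI against naive, Leu-CAG at 0.60 and Leu-AAG at 0.37 in sham against naive, and Leu-AAG at -0.28 in mTBI against sham. With DESeq2 and without them Leu-AAG was at 0.28, Leu-CAG at 0.74 and SeC-TCA at 0.23 in sTBI against naive, Leu-AAG at -0.068 and SeC-TCA at -0.035 in mTBI against naive, Leu-AAG at 0.53, Leu-CAG at 0.76 and Ser-GCT at 0.080 in sham against naive, Leu-AAG at -0.60, Leu-TAG at -0.12, SeC-TCA at -0.090 and Ser-GCT at -0.15 in mTBI against sham, and Leu-TAG at 0.046 in sTBI against mTBI. Leaving out 1 library gave -0.75 to 0.13 for Leu-CAG and -0.28 to 0.014 for SeC-TCA in sTBI against naive, -0.19 to 0.41 for Leu-AAG and -0.046 to 0.31 for SeC-TCA in mTBI against naive, and -0.77 to 0.12 for Leu-CAG and -0.47 to 0.029 for Leu-AAG in sham against naive. Without mTBI libraries 1 and 4, chosen after seeing the data, no member was called, and SeC-TCA was at 0.051 in sTBI against naive.

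Counted in reads, the mean share in sTBI libraries was 1.20% for Leu, 0.1004% for Ser and 0.0202% for Arg, and that of Ser in sham libraries was 0.0876%. The Leu-TAG copy share differed by 14.2, 12.0 and 10.0 percentage points in sTBI, mTBI and sham against naive without the 4 libraries (exact permutation p of 0.0952, 0.200 and 0.0952, each the smallest that the libraries left allow).

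Deviations from the group mean were correlated between libraries of different groups with the same replicate number. The median r was 0.001 (-0.40 to 0.52), and 9 of 27 pairs were over 0.1. This check cannot exclude that same-numbered rats shared a day or batch. The numbers were not used as pairs in the main fit. With a replicate block no member was called (0 in each comparison); Leu-TAA in sTBI against naive was at -0.78. Arg-ACG and Arg-TCG, at 19.9 and 24.3 UMIs in the mean library, are limited by depth.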
